A study of Mus musculus with 4 samples.

Results

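The 48 genes described here encode the machinery that licenses replication origins, copies DNA in S phase, supplies deoxynucleotides and carries chromatin marks through replication. They were taken by symbol from the platform annotation, using probe sets that carry 1 gene symbol and the brightest such set where a gene had several. All 48 were found among 19938 named genes. All 48 also passed a filter on dim genes (the brightest array had to reach 6 in log2 intensity), which left 12526 genes in all. They were listed by known function, with no threshold on a measured value, but with earlier results of these data known.

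Gene expression was measured in epithelial cells shaken off the colon of sex-matched C57BL/6 mice, 6 to 8 weeks old, on day 12 of a colitis-associated cancer model. Every group, the wild type included, had received azoxymethane at 10 mg/kg, a colon carcinogen, and 5 days later 3.5% dextran sulfate sodium in the drinking water for 5 days, which injures the colonic lining. The groups were WT, Bmi1ΔIEC, Mel18ΔIEC, and Bmi1ΔIEC Mel18ΔIEC, called DKO in the labels, with 1 Affymetrix Mouse Gene 1.0 ST array each. Bmi1 and Mel18 (gene symbol Pcgf2) code for paralogous parts of the chromatin repressor Polycomb repressive complex 1, and ΔIEC stands for deletion in intestinal epithelial cells. The sources used here do not give the promoter that drove the deletion or the number of mice behind each array, and they describe no cell sorting. With 1 array per genotype no difference has a replicate check, so none was tested, and 4 arrays in all allow only coarse comparisons.

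Replication of a chromosome begins in G1, when the origin recognition complex, Cdc6 and Cdt1 load the MCM2-7 helicase onto DNA as an inactive ring. In S phase Cdc45 and GINS join the ring and turn it into the active helicase, and polymerases alpha, epsilon and delta then copy the strands behind it. Transcription of many of these genes is driven by E2F factors and held back by the retinoblastoma family, so in the gut their transcripts mark the dividing cells of the crypt.

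Over all genes the DKO array was the least like the rest, with Pearson correlations of 0.878 to 0.906 across genes against 0.978 to 0.982 among the other 3 arrays. Neither deleted gene was lowest on an array labelled with its deletion. On the log2 scale Bmi1 read 7.64 on DKO, 7.43 on Bmi1ΔIEC and 7.25 on WT, with Mel18ΔIEC lowest, and Pcgf2 read 6.81 on DKO, 6.84 on Mel18ΔIEC, 6.96 on WT and 6.72 on Bmi1ΔIEC. The sources used here do not name the deleted exons, and probes elsewhere in the transcript would still give signal, so these values do not check the labels. All 10 genes of a seminal vesicle list were highest on WT, against 23.2% of all genes analysed. Their median was 9.60 on WT and 4.02 to 4.45 elsewhere. Only Svs2 (6.82) and Svs5 (6.18), both on Bmi1ΔIEC, reached 6 on another array. The others passed the filter on dim genes only through WT. Because of these WT values, list counts and medians against WT are given beside those against the mean of the 2 single deletions. The latter leave WT out. Single-gene differences and ranges are against WT unless stated. Cells were labelled as intestinal epithelium, and the 10 pan-epithelial markers, Epcam and Cdh1 among them, had median log2 intensities of 11.90 to 12.20.

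Promoter stretches of the genes are shown first, because E2F control is a known feature of many of these genes. RefSeq promoters of the GRCm38.p6 build, 250 bases before to 50 bases after the transcription start, were matched by symbol for 40 of the 48 genes. The E2F words TTTCCCGC, TTTCGCGC, TTTGCCGC and TTTGGCGC were searched on both strands, and overlapping matches were kept. The stretches below are the 170 bases before the start, read 5′ to 3′ on the gene's strand, with E2F words in capitals. They lie at Mcm5 at chr8:75109339-75109508 on the plus strand, Mcm6 at chr1:128359706-128359875 on the minus strand and Mcm7 at chr5:138171884-138172053 on the minus strand, for subunits of the helicase. The others are Gins3 at chr8:95633389-95633558 on the plus strand, Cdc6 at chr11:98907981-98908150 on the plus strand, Orc1 at chr4:108579284-108579453 on the plus strand and Orc3 at chr4:34614943-34615112 on the minus strand. Tk1 at chr11:117826015-117826184 on the minus strand is shown as a gene far lower on DKO with none of these words in its window.
Mcm5: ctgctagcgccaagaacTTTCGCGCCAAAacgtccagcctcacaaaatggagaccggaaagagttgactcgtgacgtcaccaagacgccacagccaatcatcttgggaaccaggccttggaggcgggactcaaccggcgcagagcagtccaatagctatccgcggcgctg
Mcm6: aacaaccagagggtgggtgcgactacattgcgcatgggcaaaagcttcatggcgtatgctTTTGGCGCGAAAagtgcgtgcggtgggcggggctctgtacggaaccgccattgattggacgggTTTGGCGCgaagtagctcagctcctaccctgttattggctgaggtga
Mcm7: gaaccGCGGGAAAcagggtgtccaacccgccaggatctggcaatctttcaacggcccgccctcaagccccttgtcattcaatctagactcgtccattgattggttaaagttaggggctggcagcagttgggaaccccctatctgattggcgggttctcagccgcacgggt
Gins3: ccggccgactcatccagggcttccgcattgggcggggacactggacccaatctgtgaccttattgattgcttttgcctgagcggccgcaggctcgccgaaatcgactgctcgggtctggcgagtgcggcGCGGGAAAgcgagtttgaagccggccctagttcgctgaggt
Cdc6: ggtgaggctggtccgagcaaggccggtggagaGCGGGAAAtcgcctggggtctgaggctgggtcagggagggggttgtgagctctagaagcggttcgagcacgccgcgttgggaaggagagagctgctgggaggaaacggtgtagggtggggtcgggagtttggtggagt
Orc1: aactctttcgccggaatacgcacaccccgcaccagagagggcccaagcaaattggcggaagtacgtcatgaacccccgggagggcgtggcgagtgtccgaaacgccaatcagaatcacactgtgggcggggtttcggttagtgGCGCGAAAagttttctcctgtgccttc
Orc3: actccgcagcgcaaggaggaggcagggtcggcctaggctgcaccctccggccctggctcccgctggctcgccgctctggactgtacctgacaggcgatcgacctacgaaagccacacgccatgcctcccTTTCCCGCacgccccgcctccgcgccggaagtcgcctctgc
Tk1: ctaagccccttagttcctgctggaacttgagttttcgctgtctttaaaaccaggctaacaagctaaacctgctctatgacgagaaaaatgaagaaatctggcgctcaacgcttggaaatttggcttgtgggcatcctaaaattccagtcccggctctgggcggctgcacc

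At least 1 E2F word was present in the window of 17 of the 40 genes (42.5%), against 744 of 32851 RefSeq promoters of the same length (2.26%) and 447 of 9988 genes analysed that had an entry (4.48%). In 11 of the 17 a word lay before the start, and in 6 only in the 50 bases after it. For the 7 of the 40 genes with several entries, a match in any entry counted. The runs of 12 capitals in Mcm5 and Mcm6 are 2 overlapping matches on opposite strands, beginning 153 and 110 bases before the start. By role, words were found in 4 of 5 MCM2-7 subunits with an entry, in 2 of 2 licensing genes, Cdc6 and Cdt1, and in 0 of 4 deoxynucleotide genes and 0 of 3 subunits of RPA. The genes of mitosis held a different word. TTTGAA is the core of the cell cycle homology region through which the DREAM complex represses mitotic genes. It was found for 12 of 17 mitosis genes with an entry (70.6%) but for 6 of 40 replication genes (15.0%). The latter share was near those of all promoters (17.9%) and of genes analysed that had an entry (14.2%). Mcm2 is one of the 6, at chr6:88898781-88898950 on the minus strand, with the word in capitals 70 bases before the start.
Mcm2: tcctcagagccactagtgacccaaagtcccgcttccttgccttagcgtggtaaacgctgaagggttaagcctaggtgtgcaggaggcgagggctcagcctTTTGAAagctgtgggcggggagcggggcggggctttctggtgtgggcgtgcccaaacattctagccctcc
CCAAT on either strand, the NF-Y box, was found for 26 of the 40 genes (65.0%) and for 15 of 17 mitosis genes (88.2%). Its share was 37.4% of all promoters and 41.9% of genes analysed that had an entry. A match describes letters in this window and not a bound site. The values overlapped widely between genes with and without an E2F word. The median log2 difference of DKO from WT was -1.19 over the 17 with a word (from -1.85 to -0.45) and -1.45 over the 23 without (from -2.27 to -0.35). Against the single deletions these medians were -1.03 and -1.2.

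Every one of the 48 genes was lowest on DKO, an order that 46.0% of all genes analysed showed. Against WT, 45 of the 48 were lower on DKO by 1.5-fold or more and 0 were higher, while 20.2% of all genes were lower by that much and 14.3% higher. By 2-fold or more 37 were lower (8.19% of all genes), and by any amount all 48 (54.3%). The median log2 difference of the 48 was -1.24 (2.36-fold lower), with a range from -2.27 to -0.35, and the median of all genes was -0.05. Against the mean of the single deletions 41 of 48 were lower by 1.5-fold or more and 0 higher (18.8% and 14.0% of all genes), 26 by 2-fold or more (6.51%) and all 48 by any amount (55.7%), and the median was -1.08. Against Bmi1ΔIEC alone 38 were lower by 1.5-fold or more (17.7% of all genes), and against Mel18ΔIEC alone 43 (20.8%). These comparisons share the DKO array, so they are not independent of each other. In 37 of the 48 genes DKO lay at least 1.5-fold below each of the other arrays, against 14.6% of all genes. The gap from DKO to the nearest array had a median of 1.0 on the log2 scale, while the widest gap among the other 3 arrays had a median of 0.31 and was 0.63 at most.

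**Figure D1:**
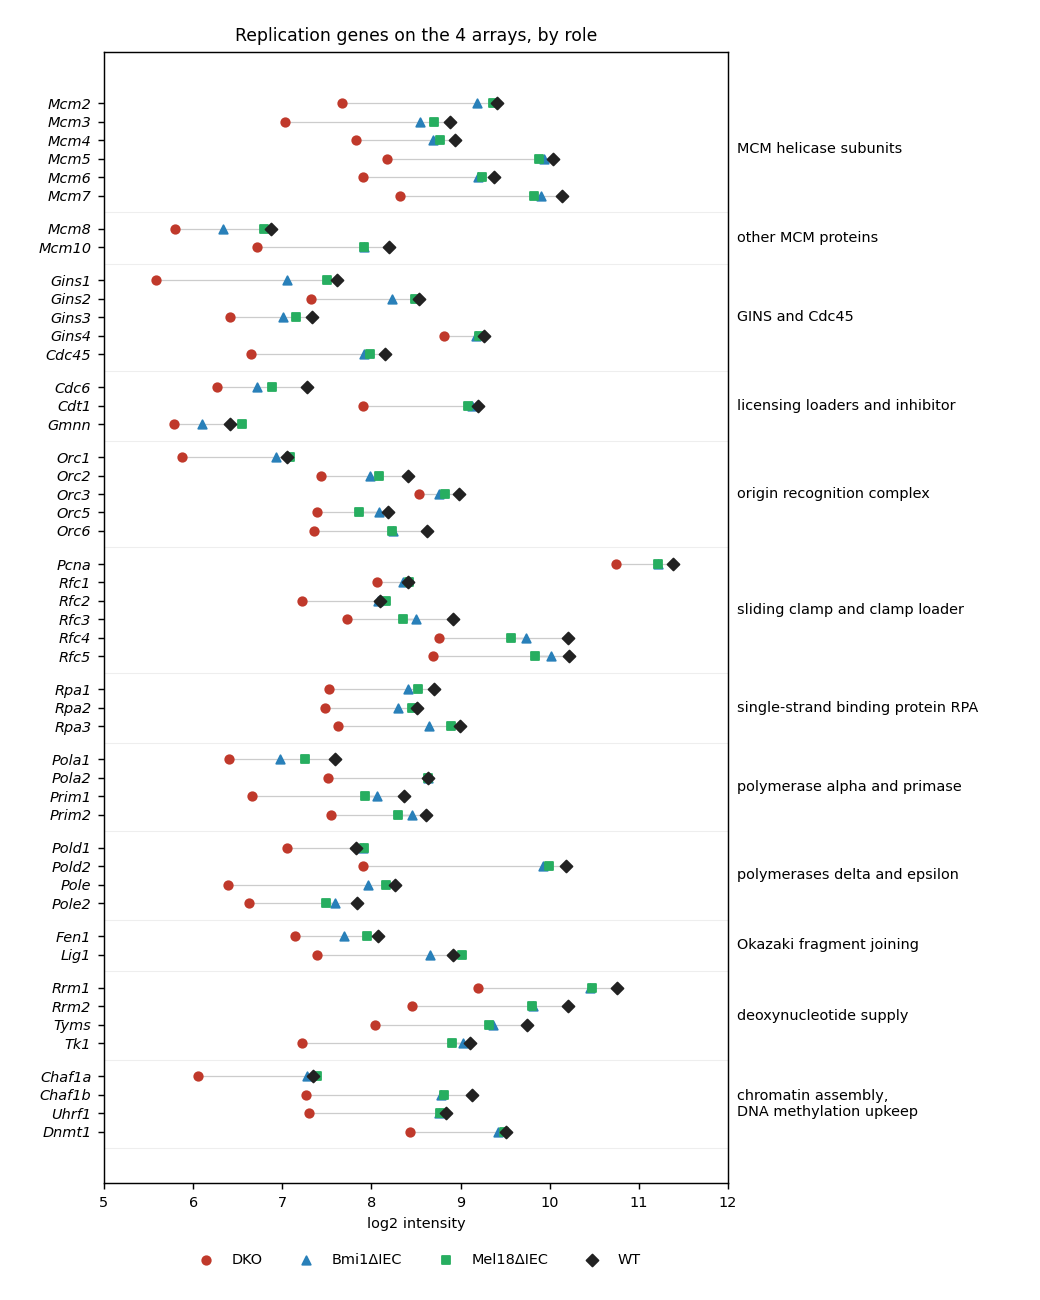
Log2 intensity of each of the 48 genes (x axis) on the 4 arrays, with the genes in rows grouped by role, 1 array per genotype and no error bars because there are no replicates. The DKO point is the lowest in all 48 rows, and the WT point is the highest in 40.

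The MCM2-7 helicase, the ring that unwinds DNA at the fork, was lower on DKO in all 6 of its subunits, by 1.12 to 1.85 on the log2 scale against WT. Mcm5 read 8.18 on DKO, 9.94 on Bmi1ΔIEC, 9.88 on Mel18ΔIEC and 10.04 on WT, a difference of -1.85 from WT and -1.73 from the single deletions. Mcm3 read 7.03, 8.54, 8.70 and 8.88 on the same arrays. The 3 arrays other than DKO lay close together for both genes, and DKO stood alone below them. Mcm4 differed least, at 7.83, 8.69, 8.77 and 8.94, which is 2.17-fold lower than WT. Mcm2 (-1.74), Mcm7 (-1.81) and Mcm6 (-1.47) lay between. The E2F words printed above occur in the Mcm5, Mcm6 and Mcm7 stretches and not in that of Mcm2, and the 4 values lie within the same range.

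Of the MCM proteins outside the ring, Mcm10, which helps to activate the helicase, read 6.72 on DKO, 7.92 on both single deletions and 8.20 on WT. Mcm8, a helicase of recombination repair, read 5.80, 6.34, 6.79 and 6.87 on DKO, Bmi1ΔIEC, Mel18ΔIEC and WT. Bmi1ΔIEC thus lay between DKO and the other arrays for Mcm8, but the gene is dim and such a difference is rough. Only 4 of the 48 genes, Mcm8, Gins1, Gmnn and Orc1, read under 6 on DKO, below the level asked of the brightest array.

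GINS and Cdc45, the cofactors that activate the ring, were uneven. Gins1 read 5.58 on DKO, 7.05 on Bmi1ΔIEC, 7.50 on Mel18ΔIEC and 7.61 on WT, and since the DKO value lies under 6 the size of this difference is rough. Gins4 differed less, at 8.81, 9.17, 9.21 and 9.26, which is 1.37-fold lower than on WT. The 4 GINS subunits form a complex of 1 copy each, yet their differences from WT ran from -2.03 for Gins1 through -1.21 for Gins2 and -0.93 for Gins3 to -0.46 for Gins4. Cdc45 read 6.65, 7.92, 7.98 and 8.15, a difference of -1.50.

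Licensing factors were lower on DKO in 3 of 3 cases relative to WT and in 1 of 3 relative to the single deletions, counted at 1.5-fold. Over all genes these shares were 20.2% and 18.8%. Cdt1, which brings the helicase to origins, read 7.90 on DKO, 9.13 on Bmi1ΔIEC, 9.08 on Mel18ΔIEC and 9.19 on WT, so that DKO alone was low. Cdc6, the ATPase that loads the helicase with Cdt1, graded across the arrays instead, at 6.27, 6.72, 6.89 and 7.28. Its difference from WT was -1.01 on DKO, -0.56 on Bmi1ΔIEC and -0.39 on Mel18ΔIEC, and its departure from additivity was only -0.06. Gmnn, which encodes geminin, the inhibitor of Cdt1, read 5.78, 6.10, 6.55 and 6.41. Against the single deletions Cdc6 and Gmnn were each -0.54, short of 1.5-fold.

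The origin recognition complex, which marks origins throughout the cell cycle, differed less than the helicase, with a median of -0.98 over its 5 genes among the 48. Against the single deletions the median of these genes was -0.60. Orc1, the subunit whose level is tied to the cell cycle, read 5.87 on DKO, 6.93 on Bmi1ΔIEC, 7.09 on Mel18ΔIEC and 7.05 on WT, and Orc6 read 7.36, 8.24, 8.23 and 8.62. Orc3, of the stable core, read 8.53, 8.76, 8.83 and 8.98, a difference of -0.45 from WT. Orc2 (-0.98) and Orc5 (-0.80) lay between, and Orc4, the subunit outside the 48, was at -0.15 against WT and 0.29 against the single deletions. Orc3 carries an E2F word in the stretch printed above and Orc1 does too, while their differences from WT were -1.18 for Orc1, which is dim on DKO, and -0.45 for Orc3.

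Pcna, the sliding clamp that tethers polymerases, was lower by only 1.55-fold, at 10.74 on DKO, 11.21 on Bmi1ΔIEC, 11.22 on Mel18ΔIEC and 11.38 on WT. A second Pcna probe set read 10.75, 11.22, 11.19 and 11.39, nearly the same values, so the 2 sets may read the same RNA or near-identical copies and are not independent. The clamp loader, which places the ring on DNA, split into its large and small subunits. Rfc5 read 8.69, 10.01, 9.83 and 10.22 (-1.53 against WT) and Rfc4 8.76, 9.73, 9.57 and 10.20 (-1.45), with Rfc3 at -1.19 and Rfc2 at -0.88. Rfc1, the large subunit, had the smallest difference of all 48, at 8.06, 8.35, 8.42 and 8.41 (-0.35).

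RPA coats single-stranded DNA, and its 3 subunits were lower on DKO by similar amounts. Rpa3 read 7.63 on DKO, 8.65 on Bmi1ΔIEC, 8.89 on Mel18ΔIEC and 8.99 on WT, and a dimmer second probe set gave -1.12 where the first gave -1.36. Rpa2 read 7.48, 8.30, 8.45 and 8.51 (-1.03) and Rpa1 was at -1.18, so the width of the complex was 0.32. Among the complexes of 3 or more subunits examined here this was the narrowest against WT.

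Polymerase alpha-primase, which lays down the RNA-DNA primers, was lower by 1.07 to 1.70. Prim1, the catalytic primase subunit, read 6.66 on DKO, 8.06 on Bmi1ΔIEC, 7.93 on Mel18ΔIEC and 8.37 on WT. Prim2, its partner, read 7.55, 8.45, 8.30 and 8.61 (-1.07). Pola2 read 7.51, 8.64, 8.63 and 8.63, so that the 3 other arrays were level. Pola1, the polymerase itself, graded as Cdc6 did, at 6.40, 6.97, 7.25 and 7.59. Among the 48 it was the single gene 1.5-fold or more below WT on Bmi1ΔIEC (-0.62).

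The replicative polymerases held both the largest difference of the set and the widest spread within a complex. Pold2, an accessory subunit of polymerase delta, read 7.91 on DKO, 9.92 on Bmi1ΔIEC, 9.99 on Mel18ΔIEC and 10.18 on WT, which is 4.83-fold lower than WT and 4.14-fold lower than the single deletions. Pold1, the catalytic subunit, read 7.05, 7.90, 7.92 and 7.83 (-0.79). The other 2 subunits, outside the 48, were not lower: Pold3 was at 0.01, and Pold4 read 8.79 on DKO against 8.21, 8.30 and 7.92, 0.87 above WT. Polymerase delta thus spanned 3.14 on the log2 scale from Pold2 to Pold4. Polymerase epsilon, the leading-strand enzyme, spanned 1.30, from its catalytic subunit Pole (6.39, 7.96, 8.16 and 8.27, a difference of -1.87) through Pole2 (-1.21) and Pole3 (-1.16) to Pole4 (-0.58). Pole3 and Pole4 are histone-fold subunits that polymerase epsilon shares with other chromatin complexes in part.

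**Figure D2:**
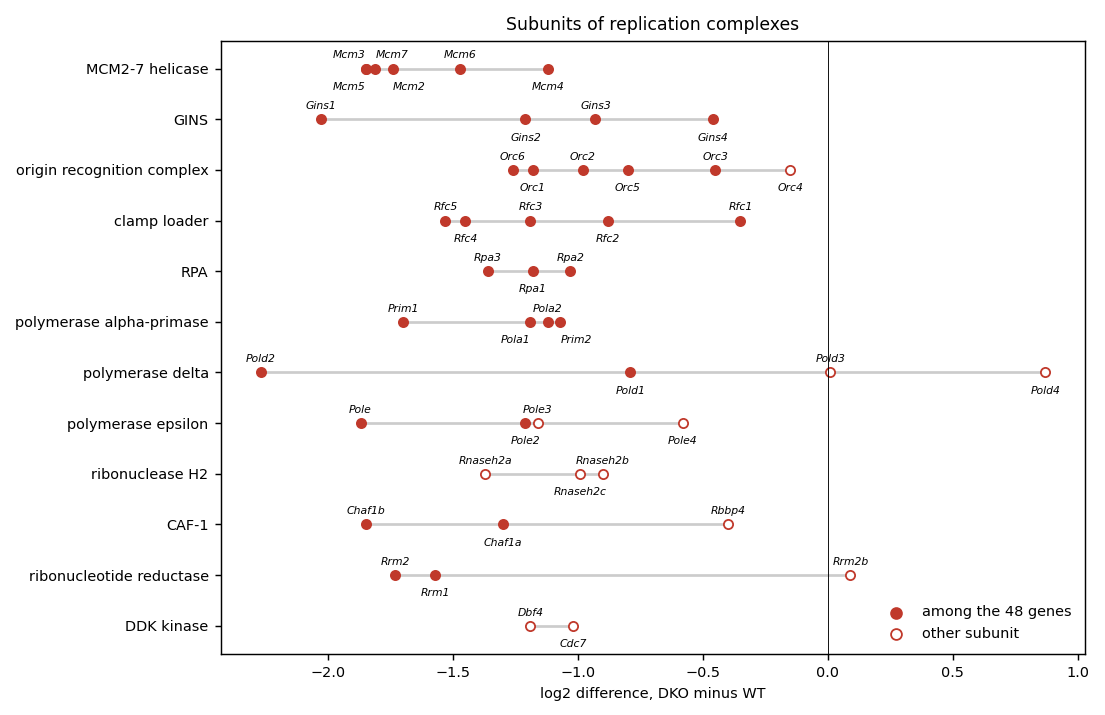
Log2 difference of DKO from WT (x axis) for each subunit of 12 replication complexes (rows), with filled points for genes among the 48, open points for further subunits, and 1 array per genotype. Subunits of RPA lie within 0.32 of each other, while those of polymerase delta run from -2.27 for Pold2 to 0.87 for Pold4.

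Enzymes that finish Okazaki fragments were lower as well. Lig1, the ligase that seals them, read 7.39 on DKO, 8.66 on Bmi1ΔIEC, 9.02 on Mel18ΔIEC and 8.91 on WT (-1.52), and Fen1, the flap endonuclease, read 7.14, 7.69, 7.95 and 8.07 (-0.92). For both genes Bmi1ΔIEC lay between DKO and the other arrays.

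Genes of deoxynucleotide supply were similar to each other, with 4 of 4 lower on DKO by 1.57 to 1.89 relative to WT. Their median was -1.72 against WT and -1.32 against the single deletions. Tk1, the thymidine kinase of S phase, read 7.22 on DKO, 9.03 on Bmi1ΔIEC, 8.90 on Mel18ΔIEC and 9.11 on WT, and its second probe set gave -1.80 where the first gave -1.89. Rrm1, the large subunit of ribonucleotide reductase, read 9.20, 10.45, 10.47 and 10.76, and Rrm2, its S-phase small subunit, read 8.46, 9.81, 9.80 and 10.20. Tyms, which makes thymidylate, was 3.25-fold lower than on WT. Of 9 further genes of nucleotide metabolism, 4 were lower than on WT by 1.5-fold or more and 1 higher (20.2% and 14.3% of all genes). Against the single deletions these counts were 3 and 1 (18.8% and 14.0%). The lower ones were Shmt1 (-1.53), a folate enzyme, Dtymk (-1.32), the thymidylate kinase, Dctpp1 (-0.89) and Dut (-0.73), which removes dUTP and was at -0.36 against the single deletions. Some relatives of the S-phase enzymes were nearly level. Rrm2b, the small subunit induced by p53, read 6.22 on DKO and 6.13 on WT, and the mitochondrial kinases Tk2 and Dguok were at 0.14 and -0.10. Samhd1, which breaks deoxynucleotides down and is abundant in myeloid cells, was higher on DKO, at 11.98 against 10.79, 10.69 and 10.59 (2.63-fold over WT).

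Genes that rebuild chromatin behind the fork were lower by 1.08 to 1.85. Chaf1b, of the histone chaperone CAF-1, read 7.27 on DKO, 8.78 on Bmi1ΔIEC, 8.81 on Mel18ΔIEC and 9.13 on WT, and Chaf1a read 6.05, 7.28, 7.39 and 7.34. The third CAF-1 subunit, Rbbp4, which also serves other chromatin complexes, was at -0.40. Uhrf1, which reads half-methylated DNA, and Dnmt1, the methyltransferase it recruits, were at -1.54 and -1.08. Dnmt1 read 8.43 on DKO, 9.42 on Bmi1ΔIEC, 9.49 on Mel18ΔIEC and 9.51 on WT.

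The single deletions lay close to WT. On Bmi1ΔIEC 1 of 48 genes (Pola1) was below WT by 1.5-fold or more and 0 were above it, against 1.53% and 2.02% of all genes, and 0 were 2-fold lower (0.359%). On Mel18ΔIEC 1 of 48 (Rfc4, -0.63) was lower and 0 higher, against 2.35% and 1.19% of all genes, and 0 were 2-fold lower (0.814%). These counts are near the background, but the small differences ran mostly one way. By any amount, 46 of 48 were below WT on Bmi1ΔIEC (53.6% of all genes) and 40 of 48 on Mel18ΔIEC (49.1%), with medians of -0.25 and -0.16. WT was the highest of the 4 arrays for 40 of the 48 genes and for 23.2% of all genes. Both comparisons rest on the same WT array, the one with seminal vesicle transcripts, so they do not support each other. Over all genes the scaled median absolute deviation of these differences was 0.191 and 0.217, so a shift of this size in 1 gene is within the ordinary spread between 2 arrays. Between Bmi1ΔIEC and Mel18ΔIEC 0 of 48 were at least 1.5-fold apart, against 1.24% of all genes lower and 3.26% higher on Bmi1ΔIEC. At 2-fold 0 were lower (0.224%), by any amount 33 were (56.2%), and the median was -0.06.

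**Figure D3:**
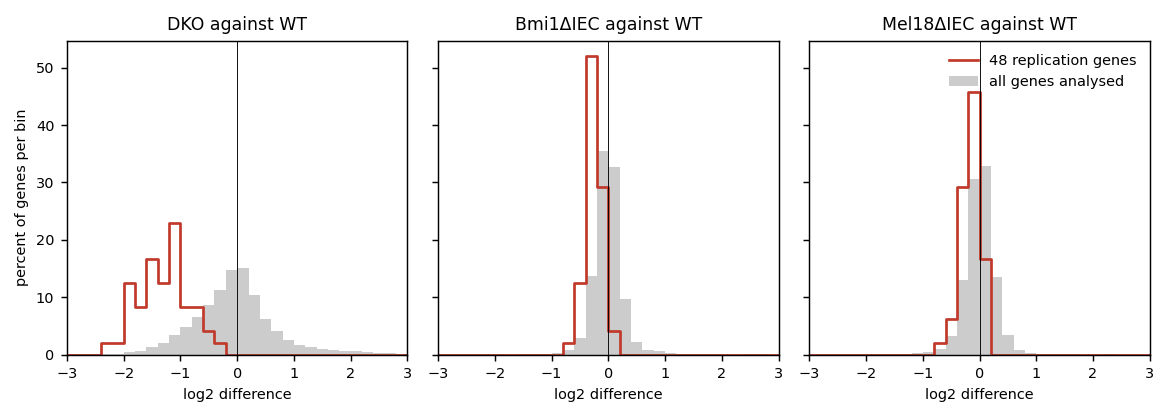
Distribution of log2 differences from WT (x axis, bins of 0.2) as percent of genes per bin (y axis) for the 12526 genes analysed (grey bars) and the 48 replication genes (red line), in 1 panel per deletion array. The red line lies wholly below 0 for DKO, with a median of -1.24, and crosses 0 for Bmi1ΔIEC (median -0.25) and Mel18ΔIEC (median -0.16), where 46 and 40 of the 48 lie below 0.

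If the single deletions added up on the log2 scale, DKO would differ from WT by the sum of their differences. DKO lay below that sum for all 48 genes (55.9% of all genes), with a median of -0.92 against -0.08 over all genes. It lay below by 1.5-fold or more for 33 of 48 (19.1%) and by 2-fold or more for 17 (6.43%), and above by 1.5-fold for 0 (15.4%). Pold2 (-1.82), Mcm5 (-1.60) and Tk1 (-1.60) lay furthest below additivity, and Cdc6 (-0.06), Orc3 (-0.09) and Rfc3 (-0.21) nearest to it. This value takes in the noise of all 4 arrays.

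Pathway genes outside the 48 were lower on DKO in a smaller share. Of 74 analysed, 44 were below WT by 1.5-fold or more and 3 above it, where 20.2% and 14.3% of all genes were, with a median of -0.75. Against the single deletions 35 were lower and 3 higher (18.8% and 14.0% of all genes), with a median of -0.51. The 6 remaining subunits of the same machines, among them Mcm9 (-0.04), went both ways. Of these, 1 was lower and 1 higher than on WT, with a median of -0.09. Against the single deletions 1 was lower and 0 higher, with a median of 0.06. The share lower among the 48 thus depends in part on which subunits were listed. The helicase-activating kinase DDK was lower in both subunits, Cdc7 (-1.02) and Dbf4 (-1.19), and among the firing factors Ticrr was furthest at -1.61 and Mcmbp nearest to level at -0.09. Fork protection and checkpoint genes were lower in 6 of 8 cases in both comparisons, and against WT they ran from Tipin (-1.75) to Rad17 (0.01). Of primer removal enzymes and topoisomerases 4 of 7 were lower than on WT and 3 of 7 lower than on the single deletions. Rnaseh2a (-1.37) was among the lower ones, and 1 gene was higher, Top2b (0.62). Its proliferation-linked relative Top2a was at -1.12. Alternative clamp loader genes ran from Chtf18 (-0.91) to Chtf8 (-0.35). Histone supply genes ran from Asf1b, a histone chaperone, at -1.79 to Rbbp4 at -0.40, with 4 of 7 lower than on WT and 3 of 7 lower than on the single deletions.

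Regulators of the programme were examined beside it. Of 15 genes of the E2F and pocket protein list, 10 were lower on DKO than on WT by 1.5-fold or more and 0 higher. Against the single deletions only 6 were lower and 1 higher (Lin54, 0.72). Over all genes 20.2% were lower and 14.3% higher than on WT, and 18.8% and 14.0% against the single deletions. The 8 E2F genes were all below WT: E2f1 was at -0.72, E2f2 at -0.89, E2f3 at -1.17, E2f4 at -0.71, E2f5 at -0.67, E2f6 at -0.85, E2f7 at -0.87 and E2f8 at -1.70. E2f8, an atypical repressor, read 8.36 on Bmi1ΔIEC, 8.71 on Mel18ΔIEC and 8.70 on WT, with DKO below all 3. Relative to the single deletions E2f1 was at -0.66, E2f2 at -0.96, E2f3 at -0.86, E2f7 at -0.77 and E2f8 at -1.53. The other E2F genes were short of 1.5-fold there, E2f4 at -0.58, E2f5 at -0.45 and E2f6 at -0.25. In the retinoblastoma family Rb1 was at 0.39, Rbl2 at 0.15 and Rbl1 at -0.47. Centring on pan-epithelial genes moved the median of all genes from -0.05 to -0.35, so the sign of differences smaller than that shift, such as those of Rbl2, Tk2 and Pold3, is not settled. Of 12 cyclins and kinases of G1 and S, 9 were lower by 1.5-fold or more, and the list ran from Ccna2 (9.15 on DKO, 10.81 on both single deletions and 11.03 on WT) to Cdc25a at -0.10. Relative to the single deletions 7 of the 12 were lower.

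Cell type markers differed between the arrays too, counted here at 1.5-fold. Over all genes 20.2% were lower and 14.3% higher than on WT, and 18.8% and 14.0% against the single deletions. Mitosis genes were lower on DKO by 1.5-fold or more relative to WT in 19 of 19 cases (median -1.79), and crypt base and progenitor genes in 7 of 8 (median -1.28), Olfm4 being higher. Against the single deletions these were 19 of 19 (median -1.50) and 6 of 8 (median -1.29). Pan-epithelial genes were 1.5-fold apart in 0 of 10 cases in either comparison (medians 0.18 and 0.03). Mature colonocyte genes went both ways: of 8, 2 were lower, Slc26a3 (-1.60) and Aqp8 (-1.38), and 1 was higher, Guca2a (1.70), with a median of 0.10. Against the single deletions 2 were lower and 1 higher too, with a median of 0.05. Neutrophil genes were higher in 11 of 12 cases (median 2.15), mononuclear phagocyte genes in 12 of 12 (2.16), endothelial genes in 6 of 6 (1.12) and fibroblast genes in 6 of 6 (0.82). Relative to the single deletions these counts were 11 of 12, 12 of 12, 5 of 6 and 4 of 6 (medians 2.32, 2.27, 1.21 and 0.72). Of the genes counted here, Adgre1, Kdr, Emcn and Olfm4 passed the filter on dim genes only through DKO. That filter left out Tek (0.42) of 7 measured endothelial genes and Lum (-0.04) of 7 measured fibroblast genes. The counts of these lists are thus in part set by the filter. The T and NK cell list had a median of 0.40 against WT and the B and plasma cell list one of 0.61. Against the single deletions these were 0.29 and 0.28. In the B and plasma cell list Ms4a1 and Mzb1 passed the filter only through DKO. From the T and NK cell list the filter left out Cd3d (0.25 against WT). These medians too are thus in part set by the filter. In these unsorted isolates fewer dividing cells and less RNA per dividing cell cannot be told apart.

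Intensities of white blood cell lists are given here beside those of the replication genes. Summed neutrophil intensity was 29370 on DKO, 15793 on Bmi1ΔIEC, 2322 on Mel18ΔIEC and 7068 on WT, and the defining markers S100a8 and S100a9 read 8.43 or more in log2 intensity on all 4. Bmi1ΔIEC and Mel18ΔIEC differed by a median of 2.31 over the 12 neutrophil genes and by -0.06 over the 48 replication genes. For mononuclear phagocyte genes the sums were 15691, 5445, 2941 and 4262, and for the 48 replication genes 10961, 22560, 22999 and 26648. When every array was centred on the pan-epithelial genes, 48 of 48 replication genes were below WT on DKO by 1.5-fold or more (34.7% of all genes). Their median was -1.54. Against the single deletions 46 were lower by that much (29.3% of all genes), with a median of -1.3. The part of other cell types in the lower replication transcripts was not tested.

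**Figure D4:**
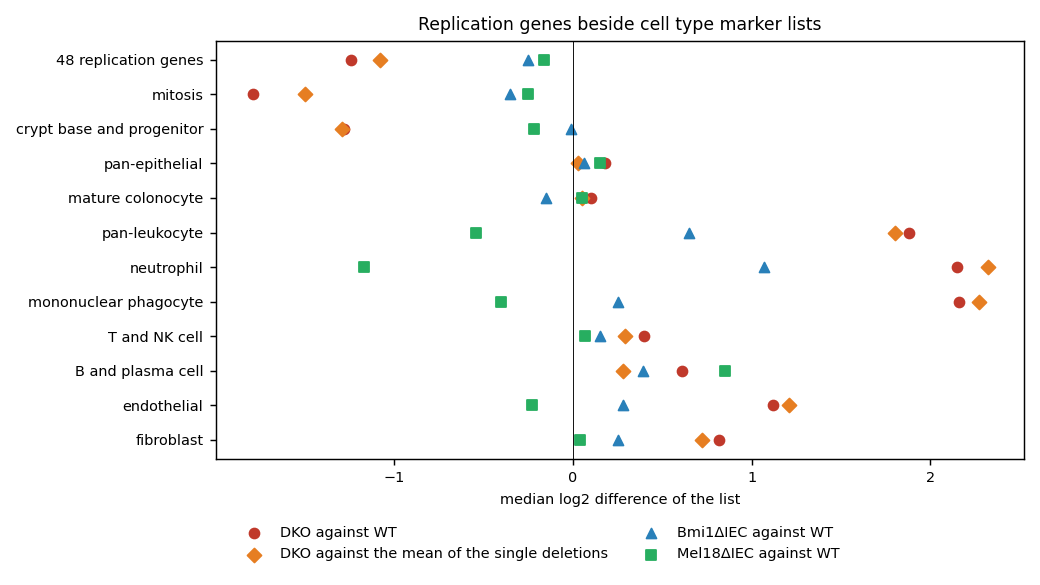
Median log2 difference (x axis) of the 48 replication genes and of 11 marker lists (rows) in 4 comparisons, each of 1 array per genotype. Replication, mitosis and crypt genes lie below -1 in both DKO comparisons while the pan-leukocyte, neutrophil and mononuclear phagocyte lists lie at 1.80 to 2.32, and pan-epithelial genes stay within 0.2 of 0.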

How the data were processed

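The deposited values are linear probe set intensities. The submitters' processing notes name Affymetrix Expression Console and RMA, with no version. RMA as usually run equalises probe distributions between arrays, which can hide a shift common to most genes; the log2 medians of the deposited arrays lay between 6.07 and 6.19. The 35556 probe sets ran from 4.7 to 13738 in intensity and log2 was taken. Of these, 21789 carried 1 gene symbol in the platform annotation, 1621 several and 12146 none listed.

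Each difference is one of log2 values, called at 1.5-fold, a log2 difference of 0.585, and set beside the same count over all 12526 genes. No test was possible with 1 array per group. Genes were described by role, giving all 4 values for the lowest and highest member of each role. The members, lists and rules were chosen with earlier results of these data known. The lowest and highest gene of a pathway list and all E2F genes could be named. Other genes named outside the 48 (further subunits, paralogs, the retinoblastoma family, lower nucleotide genes), the complexes, promoter words and printed promoters were chosen after the values were seen. Alternatives were other floors, thresholds and scalings (cyclic loess in limma 3.58.1, R 4.3.3), log2 of the value plus 32 and the mean of probe sets. The counting was tested on simulated data. Python 3.11.15 with numpy 2.4.6 and pandas 2.3.3 was used.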

Additional observations from a re-analysis of the deposited data

How the results depend on the processing

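Under each alternative run, every replication gene left in it moved by less than the scaled median absolute deviation of all genes. That deviation was 0.571 for DKO against WT and 0.545 against the single deletions. Genes at least 1.5-fold lower on DKO thus kept their direction. This rule did not check the sign of smaller differences. At 1.5-fold, 45 genes were lower than on WT, 41 lower than on the single deletions and 33 below additivity (20.2%, 18.8% and 19.1% of all genes). A floor of 8 left 38 genes, with counts of 35, 33 and 28 (24.4%, 23.8% and 23.9%). Of 48, the counts were 44, 38 and 29 after cyclic loess (16.6%, 14.3% and 14.2%). They were 43, 37 and 30 after median centring (15.0%, 14.4% and 15.3%). With 32 added they were 44, 36 and 31 (17.0%, 15.8% and 15.9%). Centred on pan-epithelial genes they were 48, 46 and 34, but the shares of all genes also rose, to 34.7%, 29.3% and 25.4%. At 2-fold they were 37, 26 and 17 (8.19%, 6.51% and 6.43% of all genes). Pan-epithelial centring and the single deletions taken alone were added after the data were seen.

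Counts for the single deletions are small and moved. For Bmi1ΔIEC against WT, 1 gene was apart in either direction (3.55% of all genes). This became 0 with a floor of 8 (3.99%), median centring (3.59%), 32 added (2.40%) or a 2-fold threshold (0.910%), 4 after cyclic loess (3.57%), 5 when centred on pan-epithelial genes (4.42%) and 14 at the lower threshold tried (13.8%). For Mel18ΔIEC against WT, 1 (3.54%) became 2 after cyclic loess (3.56%) or pan-epithelial centring (3.81%), 0 at 2-fold (0.958%) and 11 at the lower threshold (16.5%). Bmi1ΔIEC and Mel18ΔIEC were apart in 4 genes at the lower threshold (17.2%) and 0 otherwise. The cause of these moves was not tested, except that a threshold changes a count by construction.

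Scaling moved the balance over all genes: 2524 were lower and 1794 higher on DKO than on WT as deposited, 1885 and 2342 after median centring, 2071 and 2142 after cyclic loess and 4349 and 1060 when centred on pan-epithelial genes. The median of all genes went from -0.05 to 0.09, 0.02 and -0.35. Against the single deletions the split went from 2358 and 1757 to 1806 and 2207, 1791 and 2154, and 3664 and 1238. No paired analysis was possible because each group has 1 array. Low signal limits Mcm8, Gins1, Gmnn and Orc1, which read under 6 on DKO.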
